A study of Mus musculus with 36 samples.

Results

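The control hypothalamus and the control cortex were compared on all 12 arrays of these tissues from vehicle-injected mice, 6 of the hypothalamus and 6 of the cortex, out of 36 arrays in the series. The arrays were taken by their labels, as Hypoth_vehicle or Cortex_vehicle at 4 or 8 weeks. Each tissue had 3 arrays from separate animals at 4 weeks and 3 at 8 weeks after the injections. The mice were Cre+;Dicer lox/lox animals on a C57BL/6J background, so that all of them, controls included, carried both floxed Dicer alleles and the Camk2a-CreERT2 transgene, a Cre recombinase fused to a modified oestrogen receptor and driven by a promoter of forebrain excitatory neurons. Controls received the sunflower seed oil and ethanol mixture alone for 5 days from 8 weeks of age, and without tamoxifen the recombinase is not activated. Tamoxifen-treated mice of the same genotype (cKO mice) were used here only as other animals in which the same tissue difference could be measured. The 12 control arrays came from 7 animals, 5 of which gave both tissues. The other arrays came from an animal that gave only cortex (4 weeks, replicate 3) and an animal that gave only hypothalamus (4 weeks, replicate 1).

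The hypothalamus is a ventral part of the forebrain that controls feeding, body temperature, water balance, reproduction and sleep, largely through small groups of neurons that release peptides. These groups are laid down by transcription factors that the cortex hardly uses. The cortex is a layered sheet whose principal neurons are excitatory, load glutamate into vesicles with the transporter VGLUT1 and carry dendritic spines rich in calcium signalling proteins. The hypothalamus has few such spiny neurons, lines the ventral part of a ventricle with ependymal cells and tanycytes, and is crossed by myelinated tracts.

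The deposited values of each tissue had been normalised without the other tissue, and the array medians were 5.28 on the log2 scale in the cortex and 6.33 in the hypothalamus. The median tested gene was therefore 0.87 higher in the hypothalamus in the deposited values, and tissue and normalisation run cannot be told apart for such a shift. Each array was instead turned into percentile ranks over its 45037 probe sets that were not hybridisation controls, so that a percentile of 90 means a signal above that of 90% of the probe sets of the same array. Tests were run on percentiles, and the sizes of differences are given as log2 differences after all arrays had been put on 1 common distribution, which keeps the ranks. A gene was called at a Benjamini-Hochberg adjusted p under 0.05 in limma with the animal as a random block, and was called at least 2-fold where the log2 difference was also at least 1 in size. Arrays of the same tissue correlated with a mean r between 0.969 and 0.991, and arrays of the other tissue with a mean r between 0.803 and 0.849. The lowest correlation with its own tissue belonged to cortex 4 weeks replicate 3, which stood apart from the other cortex arrays. RNA integrity was read from actin, and its 3′ signal minus its 5′ signal was 1.36 ± 0.136 (SD, n = 6) in the hypothalamus and 1.32 ± 0.133 (SD, n = 6) in the cortex on the log2 scale (difference 0.044; two-sided exact permutation test, p = 0.591, smallest possible p 0.00217). The permutation test treated all arrays as independent, although some animals gave both tissues. These are whole tissues, in which fewer cells of a type and less RNA per cell cannot be told apart.

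Most measured genes differed between the tissues. Of 12368 genes tested, 4404 (35.6%) were called higher in the hypothalamus and 4908 (39.7%) lower, 75.3% in all. At least 2-fold, 767 genes (6.2%) were higher and 771 (6.23%) lower, 12.4% in all. The 6 hypothalamus percentiles lay entirely above or below the 6 cortex percentiles for 7146 genes (57.8%), and for 1514 of the 1538 genes called at least 2-fold. In the 5 animals that gave both tissues, 1534 of those 1538 genes differed in the same direction in every animal. The 1538 genes had been chosen on these same arrays, so their separation and their shared direction describe them and are no separate support. Differences of at least 4-fold were called for 162 genes higher and 150 lower in the hypothalamus, and differences of at least 16-fold for 25 and 12 genes. When the deposited values were centred on array medians instead of ranked, the split was 3235 higher and 6460 lower, and at least 2-fold 636 higher and 1025 lower. The median of all tested genes was -0.02 on the common distribution and -0.18 after centring, so the small differences of the lists below are read against those shifts. A gene had only to reach the 50th percentile on 3 of the 12 arrays, so a gene low in 1 tissue could enter only through the other tissue, and such a gene had to differ. Of the genes called at least 2-fold, 240 of the 767 higher ones had all 6 cortex arrays below the 50th percentile, and 190 of the 771 lower ones had all 6 hypothalamus arrays below it. Detection calls were not used here, and for such genes the size of a difference rests on a low signal that may be background. Without cortex 4 weeks replicate 3, the array that stood apart, 4573 genes were called higher and 4946 lower, and 720 and 744 at least 2-fold.

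**Figure D1:**
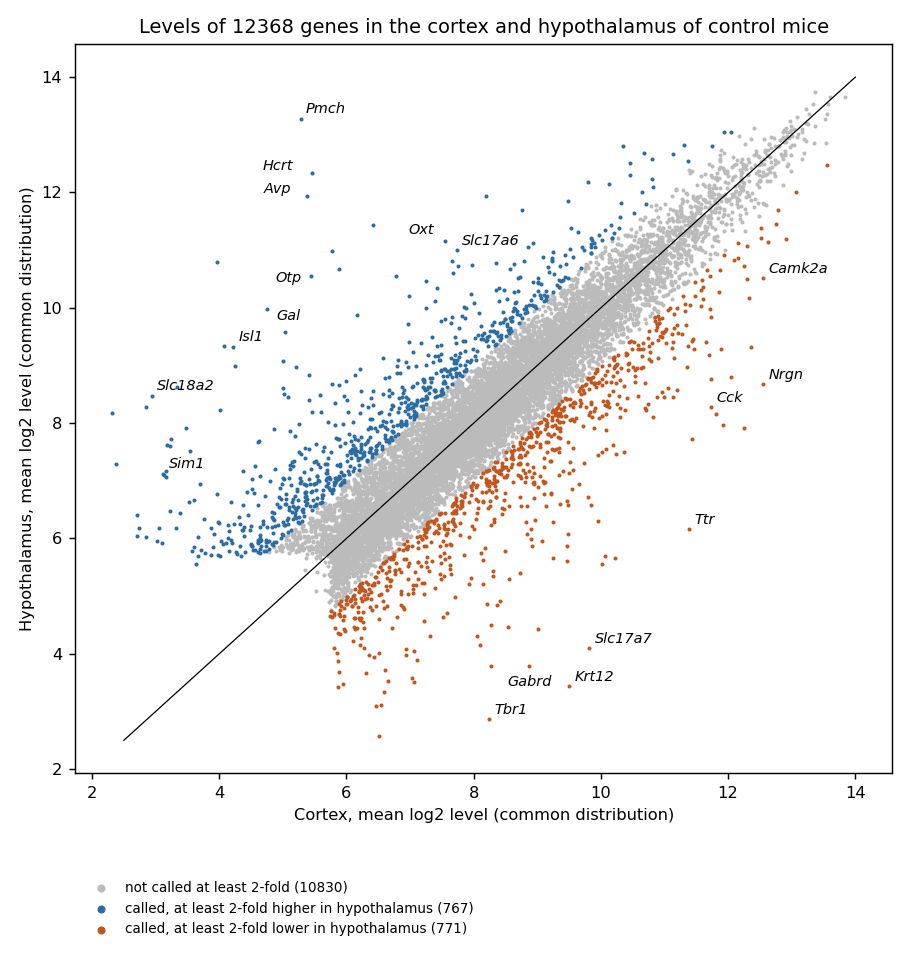
Mean level of each of the 12368 tested genes in the 6 cortex arrays (horizontal axis) and in the 6 hypothalamus arrays (vertical axis) of control mice, in log2 units of the common distribution; the line marks equal levels. The 767 genes called at least 2-fold higher in the hypothalamus lie above the line, Pmch, Hcrt and Avp among the farthest from it, and the 771 called at least 2-fold lower lie below it, led by Krt12, Slc17a7 and Tbr1.

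Markers of each tissue were high in the tissue of their label. Otp, Sim1, Six3, Hcrt, Pmch, Oxt, Avp and Slc17a6 were called at least 2-fold higher in the hypothalamus, and Tbr1, Neurod6, Emx1, Slc17a7 and Camk2a at least 2-fold lower. Nkx2-1, an early regulator of the hypothalamus, was below the filter on low signals, with a mean percentile of 47.3 in the hypothalamus and 43.1 in the cortex. Dicer1, the floxed gene, was present in both tissues. Its percentiles ran from 79.4 to 80.8 in the cortex and from 85.6 to 86.3 in the hypothalamus, without overlap, a log2 difference of 0.58 ± 0.036 (SE, adjusted p = 2.2e-08). The other probe set of Dicer1 that passed the filter gave -0.19, so the direction depends on the probe set.

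Precursors of hypothalamic peptides were among the genes with the largest differences. Of 43 listed peptide and processing genes, 34 had a probe set and 31 passed the filter; 16 of these (51.6%, against 6.2% of all genes) were called at least 2-fold higher in the hypothalamus and 4 (12.9%, against 6.23%) at least 2-fold lower, with a median log2 difference of 1.24 against -0.02 for all genes. Of the 16 higher members, 6 had all cortex arrays below the 50th percentile, so these counts describe the members that passed and lean towards genes high in the hypothalamus. Pmch encodes the precursor of melanin-concentrating hormone, a peptide of lateral hypothalamic neurons that promotes feeding and sleep. Its percentile ran from 38.2 (median 42.5) to 43.8 in the cortex and from 99.92 to 99.97 in the hypothalamus. No array of either tissue came near the other tissue, and the difference of 8.00 ± 0.061 (log2, SE; adjusted p = 1.5e-11) rests on cortex signals below the 50th percentile. Hcrt, the precursor of the orexins that keep animals awake, ran from 40.2 (median 44.0) to 48.5 in the cortex and from 99.1 (median 99.4) to 99.6 in the hypothalamus, a difference of 6.88 ± 0.085 (adjusted p = 4.1e-11).

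The hormones of the posterior pituitary axis followed. Avp, the vasopressin precursor, ran from 40.5 (median 43.1) to 46.6 in the cortex and from 98.5 (median 99.0) to 99.6 in the hypothalamus, a log2 difference of 6.55 ± 0.13 (adjusted p = 3.6e-11). Oxt, the oxytocin precursor, ran from 69.9 (median 73.8) to 76.2 and from 96.7 (median 98.0) to 98.3, a log2 difference of 3.61 ± 0.10 (adjusted p = 5.6e-09). Gal encodes galanin, a peptide of many hypothalamic groups, and ran from 25.5 (median 32.8) to 41.4 in the cortex and from 93.4 (median 93.8) to 94.7 in the hypothalamus, a log2 difference of 5.22 ± 0.11 (adjusted p = 3.2e-09). In all 3 genes the lowest hypothalamus array was far above the highest cortex array.

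Peptides that act on energy balance and on the anterior pituitary differed less but with the same separation. Trh, the precursor of thyrotropin-releasing hormone, was higher by 2.90 ± 0.20 on the log2 scale (adjusted p = 4.9e-06). Its percentiles ran from 37.1 (median 51.5) to 61.6 in the cortex and from 81.4 (median 85.5) to 87.6 in the hypothalamus. Cartpt, the precursor of a satiety peptide, was higher by 2.76 ± 0.055 (adjusted p = 7.8e-11), with 76.4 to 79.6 in the cortex and 96.2 to 97.5 in the hypothalamus. Pomc, the melanocortin precursor of the arcuate nucleus, was higher by 2.43 ± 0.12 (adjusted p = 5.9e-08), with 62.9 to 70.4 in the cortex and 88.4 to 93.3 in the hypothalamus. None of these overlapped between the tissues. Ghrh, the growth hormone-releasing hormone (2.19 ± 0.083), Npvf, a precursor of RFamide peptides (2.44 ± 0.064), and Nts, neurotensin (3.71 ± 0.24), were called higher too. Among genes for granules rather than peptides, Scg2, a granin, was higher by 2.06 ± 0.053, whereas Cpe and Vgf were not called.

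The 4 list members called at least 2-fold lower in the hypothalamus were Npy, Vip, Sst and Nppc. Npy, Vip and Sst encode peptides that cortical interneurons make as well as hypothalamic neurons. Npy ran from 97.7 (median 97.9) to 98.8 in the cortex and from 88.7 (median 91.4) to 94.1 in the hypothalamus, a log2 difference of -1.73 ± 0.13 (adjusted p = 2.2e-05). Vip ran from 91.1 (median 93.5) to 94.1 and from 76.9 (median 80.6) to 83.1, a log2 difference of -1.64 ± 0.083 (adjusted p = 3.5e-07). Sst ran from 98.4 (median 98.6) to 99.1 and from 96.2 (median 96.6) to 96.8, a log2 difference of -1.01 ± 0.066 (adjusted p = 2.6e-06). These were still high ranks in the hypothalamus. Crh, the corticotropin-releasing hormone of the paraventricular nucleus, was called lower by 0.67 ± 0.13 (log2), with arrays that overlapped between the tissues.

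**Figure D2:**
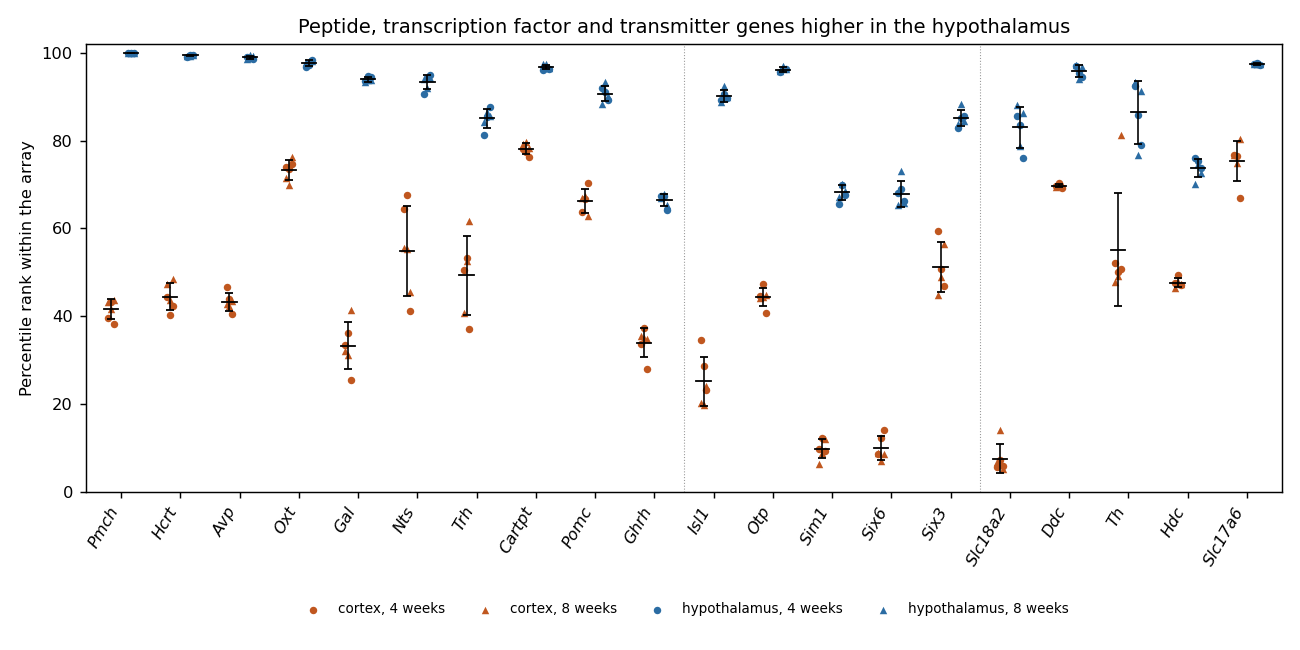
Percentile rank within the array (vertical axis) of 20 genes higher in the hypothalamus, 1 point per array, with circles for 4 weeks and triangles for 8 weeks; black lines give the mean and SD of the 6 arrays of a tissue, and dotted lines part peptides, transcription factors and transmitter genes. The hypothalamus points (blue) lie above the cortex points (orange) in every gene shown, except that 1 cortex array reached the hypothalamus range of Th.

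Promoter windows of peptide genes are shown because most of these genes were higher in the hypothalamus and several carry short motifs that few promoters hold. In each line the window runs 5′ to 3′ on the strand of the gene, from 120 bases before the annotated start to 10 bases after it (RefSeq, GRCm38.p6), and the motif is in capitals. Pmch and Hcrt hold TATAAA, the core of the TATA box:
Pmch, chr10:88090952-88091081, + strand: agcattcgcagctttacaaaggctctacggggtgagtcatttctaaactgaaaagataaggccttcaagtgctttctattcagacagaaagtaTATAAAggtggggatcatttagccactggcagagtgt
Hcrt, chr11:100762922-100763051, - strand: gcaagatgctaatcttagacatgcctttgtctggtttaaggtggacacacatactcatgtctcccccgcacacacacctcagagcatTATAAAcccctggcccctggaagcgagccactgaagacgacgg

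TATAAA was searched on the strand of the gene between 40 and 20 bases before the start. Of the 31 peptide genes tested, 23 had a promoter window of 250 bases before to 50 bases after the start in the RefSeq table, and 7 of these (30.4%) held the motif there, against 164 of 9960 tested genes with a window (1.65%) and 655 of 32817 windows in the table (2%). Among genes called at least 2-fold it stood in 2.81% of the higher and 4.22% of the lower genes with a window.

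Cartpt and Scg2, higher in the hypothalamus, and Sst, lower there, hold TGACGTCA, the palindromic cyclic AMP response element, which reads the same on both strands. Th, the enzyme of dopamine synthesis described below, holds it too:
Cartpt, chr13:99900674-99900803, - strand: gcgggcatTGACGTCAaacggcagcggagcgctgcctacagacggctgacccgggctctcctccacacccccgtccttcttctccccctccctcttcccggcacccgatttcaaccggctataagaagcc
Scg2, chr1:79440017-79440146, - strand: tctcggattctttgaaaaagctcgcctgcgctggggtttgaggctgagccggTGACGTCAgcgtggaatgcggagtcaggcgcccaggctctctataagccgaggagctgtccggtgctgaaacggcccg
Sst, chr16:23890835-23890964, - strand: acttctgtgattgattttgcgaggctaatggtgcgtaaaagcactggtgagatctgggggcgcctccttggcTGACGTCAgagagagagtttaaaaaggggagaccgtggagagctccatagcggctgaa
Th, chr7:142899986-142900115, - strand: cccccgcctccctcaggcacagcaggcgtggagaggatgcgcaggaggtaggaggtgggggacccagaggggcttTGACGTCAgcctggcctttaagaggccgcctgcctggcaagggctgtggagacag

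TGACGTCA stood anywhere in the 250 bases before to 50 bases after the start of 4 of 23 peptide genes (17.4%), 347 of 9960 tested genes (3.48%) and 588 of 32817 windows (1.79%). It was held by 3.14% of the genes called at least 2-fold higher, 2.7% of those called at least 2-fold lower and 0 of 38 cortical transcription factor genes with a window. Sst and Dio2 hold it and were lower in the hypothalamus. These are counts of letters in a window and no measure of binding.

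Transcription factors of hypothalamic development were higher in the hypothalamus in nearly every member tested. Of 54 listed, 32 passed the filter, and all of these were called (against 75.3% of all genes). Of the 32, 30 were higher and 2 lower in the hypothalamus (against 35.6% and 39.7%). At least 2-fold, 22 (68.8%, against 6.2% of all genes) were higher and 1 (3.12%, against 6.23%) was lower, with a median log2 difference of 2.01. The 16 members below the filter that had a probe set, Nkx2-1 and Lhx8 among them, stay outside these counts. Of the 22 members at least 2-fold higher, 16 had all 6 cortex arrays below the 50th percentile and passed the filter through the hypothalamus alone, so the share of higher members is raised by the filter. Isl1, a LIM homeodomain factor of arcuate neurons, ran from the percentile of 19.8 (median 23.7) to 34.6 in the cortex and from 88.8 (median 89.9) to 92.4 in the hypothalamus, a log2 difference of 5.10 ± 0.11 (adjusted p = 6e-10). Otp, a homeodomain factor of peptide-secreting neurons, ran from 40.8 (median 44.5) to 47.3 and from 95.5 (median 96.3) to 96.9, a log2 difference of 5.10 ± 0.071 (adjusted p = 5.6e-11). Sim1, which the paraventricular nucleus needs to form, ran from 6.32 (median 9.58) to 12.1 and from 65.6 (median 68.1) to 70.2, a log2 difference of 4.00 ± 0.075 (adjusted p = 8.3e-11). The arrays of the tissues did not overlap for any of these genes, and in the cortex Sim1 ranked near the bottom of the array.

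Six3 and Six6, homeodomain factors of the anterior neural plate and eye field, were higher by 2.78 ± 0.14 and 3.97 ± 0.10 on the log2 scale. Foxa1, a forkhead factor also known from midbrain dopamine neurons, was higher by 4.39 ± 0.16 (adjusted p = 5.2e-09), with 9.16 to 13.8 in the cortex and 63.6 to 78.9 in the hypothalamus. Asb4, higher by 4.74 ± 0.077 (adjusted p = 2.7e-11), is on the list as a marker of the arcuate nucleus and encodes a ubiquitin ligase adaptor, not a transcription factor. Meis2, a homeodomain factor of several forebrain regions, was the 1 member called at least 2-fold lower, by 2.76 ± 0.24 on the log2 scale (adjusted p = 2.5e-05). Its percentile was 86.2 to 95.6 in the cortex and 43.1 to 70.4 in the hypothalamus. Dlx1, Dlx2, Dlx5 and Dlx6, factors of GABAergic neurons, were called higher with log2 differences between 0.36 and 0.66.

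Receptors for hormones and peptides split between the tissues. Of 36 that passed the filter, 15 (41.7%, against 6.2% of all genes) were called at least 2-fold higher in the hypothalamus and 6 (16.7%, against 6.23%) at least 2-fold lower. The median difference was 0.09 on the log2 scale. Of the 15 higher members, 8 passed the filter through the hypothalamus alone, as did 1 of the 6 lower ones through the cortex alone, which raises both shares. Gpr101, an orphan receptor, ran from the percentile of 3.41 (median 4.22) to 13.8 in the cortex and from 79.9 (median 81.2) to 83.8 in the hypothalamus, a log2 difference of 5.44 ± 0.10 (adjusted p = 1.3e-10). Calcr, the calcitonin and amylin receptor, was higher by 4.50 ± 0.090 (adjusted p = 1.8e-10), with 6.82 to 14.8 in the cortex and 73.8 to 77.6 in the hypothalamus. Gpr50, a receptor related to those of melatonin and known from tanycytes, was higher by 4.00 ± 0.082 (adjusted p = 1.8e-10). Tacr3, the neurokinin B receptor, was higher by 3.49 ± 0.14 (adjusted p = 4.4e-08). All of these separated the tissues without overlap. The oestrogen receptor gene Esr1 was higher by 1.93 ± 0.070 and the orexin receptor gene Hcrtr1 by 1.59 ± 0.094.

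Among the receptors lower in the hypothalamus, Cckbr, the main cholecystokinin receptor of the brain, fell by 2.24 ± 0.065 on the log2 scale (adjusted p = 4.2e-10), from 89.3 to 92.1 in the cortex to 65.9 to 69.4 in the hypothalamus. Cckar, the other cholecystokinin receptor, went the other way, higher by 2.82 ± 0.074. The somatostatin receptor genes Sstr4 and Sstr3 and the corticotropin-releasing hormone receptor gene Crhr1 were lower by 1.72, 1.10 and 1.09. Lepr, the leptin receptor, was called lower by 0.28 ± 0.061 (adjusted p = 0.0017), from 51.7 to 56.2 in the cortex to 47.0 to 51.0 in the hypothalamus. Those ranks are near the middle of the array, and in the deposited values without ranking the difference was 0.78 in favour of the hypothalamus, below the median shift of 0.87.

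Genes for making, packing and sensing monoamines went in both directions. Of 29 members of the monoamine, histamine and acetylcholine list that passed the filter, all were called (against 75.3% of all genes), 17 higher and 12 lower. At least 2-fold, 10 (34.5%, against 6.2% of all genes) were higher and 3 (10.3%, against 6.23%) lower. The filter was passed through the hypothalamus alone by 4 of the 10 and through the cortex alone by 1 of the 3, which raises both shares. Slc18a2 encodes VMAT2, which loads monoamines into vesicles. It ran from the percentile of 5.23 (median 6.33) to 14.1 in the cortex and from 76.0 (median 84.5) to 88.1 in the hypothalamus, a log2 difference of 5.53 ± 0.19 (adjusted p = 2.5e-09). Ddc, the decarboxylase of dopamine and serotonin synthesis, was higher by 3.21 ± 0.13 (adjusted p = 3.6e-10), with 69.3 to 70.4 in the cortex and 94.1 to 97.1 in the hypothalamus. Hdc, which makes histamine and in the brain is known from tuberomammillary neurons, was higher by 1.93 ± 0.058 (adjusted p = 1.2e-09), with 46.4 to 49.5 and 70.2 to 75.9. None of these ranges touched. Dbh, which makes noradrenaline, was lower by 0.63 ± 0.091 (adjusted p = 0.00022), and Tph2, which makes serotonin in neurons, was below the filter, with mean percentiles of 16.8 in the cortex and 4.98 in the hypothalamus.

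The dopamine genes Slc6a3 and Th varied widely among hypothalamus arrays. Slc6a3, the dopamine transporter, had percentiles of 96.1, 90.5 and 75.9 in hypothalamus replicates 1, 2 and 3 at 4 weeks and of 96.3, 53.8 and 94.8 at 8 weeks, against 32.8 to 41.9 in the cortex (log2 difference 4.07 ± 0.61, adjusted p = 1e-04). Th, tyrosine hydroxylase, had percentiles of 92.4, 85.8 and 78.9 at 4 weeks and of 93.4, 76.7 and 91.4 at 8 weeks in the hypothalamus. The same arrays, 4 weeks replicate 3 and 8 weeks replicate 2, were lowest for both genes, and also for Foxa1, Slc18a2 and Ddc. In the cortex Th lay between 47.7 and 52.0 in 5 arrays and at 81.3 in 8 weeks replicate 3, so that the tissues overlapped (log2 difference 2.73 ± 0.41, adjusted p = 0.00034). That cortex array was also highest for Calb2. Of the genes lower in the hypothalamus, Chrm1, the main muscarinic receptor of the cortex, fell by 2.33 ± 0.056 (adjusted p = 1.2e-09), from 87.9 to 89.2 to 61.6 to 66.3, and the dopamine receptor gene Drd1 fell by 1.35 ± 0.11.

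The vesicular glutamate transporters exchanged places. Slc17a7 encodes VGLUT1 of cortical excitatory neurons and ran from 92.6 (median 93.2) to 93.8 in the cortex and from 21.5 (median 22.6) to 26.1 in the hypothalamus. The log2 difference was -5.72 ± 0.053 (adjusted p = 1.2e-12), and no array overlapped. Slc17a6 encodes VGLUT2 of subcortical neurons and ran from 66.9 (median 76.6) to 80.3 in the cortex and from 97.2 (median 97.4) to 97.6 in the hypothalamus, a log2 difference of 3.27 ± 0.12 (adjusted p = 5.6e-07). GABA synthesis differed less. Gad2 was higher by 1.21 ± 0.080 (adjusted p = 2.7e-06), with 84.0 to 89.3 in the cortex and 92.9 to 95.0 in the hypothalamus. Gad1 was not called (0.56 ± 0.15, adjusted p = 0.056). Slc32a1, the vesicular GABA transporter, was called higher by 0.35 ± 0.068 (adjusted p = 0.0012), but its other probe set gave -0.83, so its direction depends on the probe set. Over the 17 genes tested of glutamate and GABA synthesis and vesicle loading, 5 (29.4%, against 6.2% of all genes) were at least 2-fold higher. At least 2-fold lower was 1, Slc17a7 (5.88%, against 6.23%), which passed the filter through the cortex alone.

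Receptors for these transmitters differed by subunit. Gabrd, the δ subunit of extrasynaptic GABA-A receptors, ran from 85.4 (median 86.8) to 88.6 in the cortex and from 17.4 (median 18.8) to 19.6 in the hypothalamus, a log2 difference of -5.09 ± 0.063 (adjusted p = 1.2e-12). Gabra4, its frequent partner, was lower by 1.45 ± 0.13. The glycine receptor subunits went the other way without overlap. Glra1 was higher by 3.97 ± 0.17, Glra2 by 2.32 ± 0.080 and Glra3 by 2.13 ± 0.17 (adjusted p = 3e-08, 2.4e-08 and 1.8e-05). Of 20 glutamate receptor genes, 4 (20%, against 6.23% of all genes) were at least 2-fold lower, Grin2b, Grm3, Grm2 and Grin2c. At least 2-fold higher was 1, Grik1 (5%, against 6.2%). Grin2b, an NMDA receptor subunit, was lower by 1.62 ± 0.068 (adjusted p = 6.5e-08). The median of the glutamate receptor list was 0.05, and -0.20 after centring on array medians, so it had no settled sign.

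Transcription factors of cortical excitatory neurons were lower in the hypothalamus in most members. Of 44 tested, 39 were called lower and 2, Tle4 and Rorb, higher (against 39.7% and 35.6% of all genes). At least 2-fold, 27 (61.4%, against 6.23%) were lower and 0 higher, with a median log2 difference of -1.65. Of the 27 lower members, 7 had all 6 hypothalamus arrays below the 50th percentile and passed the filter through the cortex alone. Tbr1, a T-box factor of deep-layer neurons, ran from the percentile of 72.1 (median 80.9) to 86.4 in the cortex and from 4.36 (median 6.09) to 10.5 in the hypothalamus, a log2 difference of -5.36 ± 0.11 (adjusted p = 1.2e-10). Neurod6, a basic helix-loop-helix factor of the same neurons, ran from 63.5 (median 83.6) to 86.5 and from 11.9 (median 18.5) to 26.6, a log2 difference of -4.47 ± 0.25 (adjusted p = 1e-07). Its lowest cortex value belonged to the array that stood apart, 4 weeks replicate 3. Mef2c, an activity-regulated factor, was lower by 3.65 ± 0.052 (adjusted p = 7.3e-10), from 98.8 to 99.0 in the cortex to 79.1 to 82.3 in the hypothalamus.

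Emx1, a homeodomain factor that marks the dorsal forebrain, was lower by 3.33 ± 0.080 (adjusted p = 3.4e-10) and Fezf2, a factor of corticospinal neurons, by 3.52 ± 0.11 (adjusted p = 1.3e-08). The activity-induced factor Egr3 ran from 89.1 (median 94.6) to 96.0 in the cortex and from 40.2 (median 47.2) to 60.8 in the hypothalamus, a log2 difference of -4.37 ± 0.19 (adjusted p = 1.3e-07). Its other probe set gave -0.46. The related Egr1 and Nr4a1, which neuronal firing induces within minutes, were lower by 3.04 ± 0.085 and 2.52 ± 0.17.

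Markers of single cortical layers were lower less uniformly. Of 38 tested, 13 (34.2%, against 6.23% of all genes) were at least 2-fold lower and 1, Oprk1, at least 2-fold higher (2.63%, against 6.2%). The filter was passed through the cortex alone by 2 of the 13 and through the hypothalamus alone by Oprk1, which raises both shares. The median log2 difference was -0.47. Lamp5, of upper-layer neurons and some interneurons, was lower by 3.95 ± 0.062 (adjusted p = 1.3e-09), from 98.8 to 99.2 in the cortex to 76.5 to 80.2 in the hypothalamus. Igfbp6, a binding protein of insulin-like growth factors, was lower by 3.87 ± 0.22, Crym, a thyroid hormone-binding protein, by 3.26 ± 0.25 and Rspo2, a WNT agonist, by 2.87 ± 0.052 (adjusted p = 1.6e-06, 6.9e-06 and 6.6e-11). Crym separated the tissues although 1 hypothalamus array, 4 weeks replicate 1, reached 80.5 against a median of 57.0.

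Proteins of dendritic spines and calcium signalling were lower in the hypothalamus almost throughout. Of 48 tested, 42 were called lower and 1, Olfm3, higher (against 39.7% and 35.6% of all genes). At least 2-fold, 32 (66.7%, against 6.23%) were lower and 0 higher, with a median log2 difference of -1.24. Itpka, an inositol trisphosphate kinase bound to spine actin, ran from 94.3 (median 95.0) to 95.8 in the cortex and from 41.4 (median 47.2) to 56.9 in the hypothalamus, a log2 difference of -4.56 ± 0.11 (adjusted p = 1.2e-08). Ptk2b, a calcium-activated tyrosine kinase, was lower by 4.47 ± 0.13 and Kalrn, an exchange factor that enlarges spines, by 4.33 ± 0.087 (adjusted p = 3e-08 and 2.5e-08). The 7 probe sets of Kalrn ranged from -4.33 to -0.50. Nrgn, a calmodulin-binding protein of spines, was lower by 3.87 ± 0.069 (adjusted p = 2e-08), from 99.5 to 99.7 in the cortex to 82.4 to 87.1 in the hypothalamus. Camk2a, whose promoter drives the transgene of these mice, was lower by 2.03 ± 0.069 (adjusted p = 7.5e-07) and still ranked at 95.5 to 97.0 in the hypothalamus.

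Markers of GABAergic interneurons went in both directions. Of 31 tested, 5 (16.1%, against 6.2% of all genes) were at least 2-fold higher and 7 (22.6%, against 6.23%) at least 2-fold lower. Of the 5 higher members, 1 passed the filter through the hypothalamus alone. Cck, a peptide of interneurons and of cortical excitatory neurons, ran from 98.6 (median 98.7) to 99.0 in the cortex and from 76.4 (median 80.7) to 86.2 in the hypothalamus, a log2 difference of -3.46 ± 0.12 (adjusted p = 9.3e-07). Pvalb and Cort, parvalbumin and cortistatin, were lower by 1.49 ± 0.14 and 1.45 ± 0.069, beside Npy, Vip and Sst given above. Calb2, calretinin, ran from 81.5 (median 84.1) to 94.8 in the cortex and from 98.6 to 98.8 in the hypothalamus, a log2 difference of 2.94 ± 0.23 (adjusted p = 8.9e-05). Chodl, of long-range nitric oxide neurons in the cortex, was higher in the hypothalamus by 2.27 ± 0.075 (adjusted p = 3.2e-09).

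**Figure D3:**
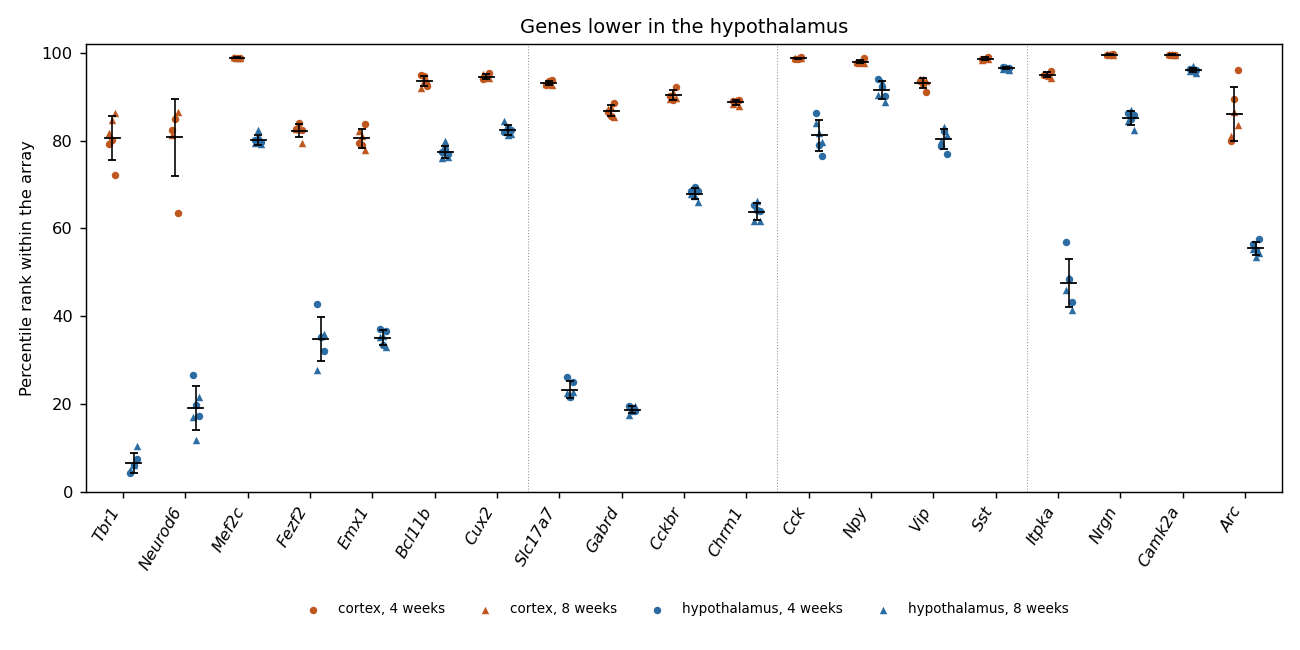
Percentile rank within the array (vertical axis) of 19 genes lower in the hypothalamus, 1 point per array as in the plot of the hypothalamic genes, with the mean and SD of the 6 arrays of a tissue; dotted lines part transcription factors, transmitter genes, interneuron peptides and postsynaptic genes. The hypothalamus points (blue) lie below the cortex points (orange) in every gene, and Slc17a7, Gabrd, Neurod6 and Tbr1 lie at percentiles under 27 there.

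The genes with the largest differences held several that are on no list of region markers. Irs4, an insulin receptor substrate, was higher in the hypothalamus by 6.84 ± 0.10 on the log2 scale (adjusted p = 1.3e-10), from 15.5 to 26.1 in the cortex to 96.5 to 97.4. H2-Q2, a class I histocompatibility gene of a family with near-identical copies whose signals the probe set may share, was higher by 5.85 ± 0.14, with cortex percentiles of 0.303 to 2.49. Sytl4, which docks secretory granules, was higher by 5.29 ± 0.091 and Dgkk, a diacylglycerol kinase, by 5.26 ± 0.11 (adjusted p = 6e-11 and 4.7e-10). At the other end, Krt12, a keratin best known from the cornea, had a difference of -6.07 ± 0.060 (adjusted p = 5.5e-13), from 90.4 to 92.5 in the cortex to 11.6 to 15.2 in the hypothalamus. Both of its probe sets gave this direction (-6.07 and -5.96). Rtn4rl2, a Nogo receptor homologue, was lower by 4.57 ± 0.10 and Mlip, known from muscle nuclei, by 4.07 ± 0.082 (adjusted p = 9.3e-10 and 5.1e-10).

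Imprinted genes, expressed from the copy of 1 parent, were called higher in the hypothalamus in 17 of 26 tested and lower in 5 (against 35.6% and 39.7% of all genes). At least 2-fold, 14 (53.8%, against 6.2%) were higher and 0 lower (against 6.23%), with a median log2 difference of 1.27. Of the 14 higher members, 3 passed the filter through the hypothalamus alone. Dlk1, a paternally expressed ligand related to Notch ligands, ran from 41.4 (median 51.9) to 58.8 in the cortex and from 96.4 to 96.8 in the hypothalamus, a log2 difference of 4.78 ± 0.14 (adjusted p = 1.1e-07). Magel2, of the Prader-Willi region, was higher by 3.43 ± 0.086 (adjusted p = 1.9e-09), from 38.1 to 46.5 to 85.1 to 88.3. Ndn of the same region, Nnat, Grb10 and Peg3 were higher by 1.51, 2.20, 2.13 and 1.18. Calcr, Asb4, Ddc and Peg3 are members of this list and of others above. Mest had the lowest difference of the list, -0.61.

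Oligodendrocyte and myelin genes were called higher in the hypothalamus in 25 of 29 tested and lower in 0 (against 35.6% and 39.7% of all genes). At least 2-fold, 6 (20.7%, against 6.2%) were higher, and the median log2 difference was 0.65 (0.33 after centring on array medians). Of the 6 higher members, 1 passed the filter through the hypothalamus alone. Gjc3, a connexin of oligodendrocytes, was higher by 1.96 ± 0.10 and Cldn11, the claudin of myelin, by 1.47 ± 0.10 (adjusted p = 8.6e-08 and 3e-06). Mbp, myelin basic protein, was at the top of every array, from 99.85 to 99.99, where percentiles leave no room, and was not called (adjusted p = 0.81).

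Astrocyte genes were called higher in 24 of 37 and lower in 7 (against 35.6% and 39.7% of all genes). At least 2-fold, 4 (10.8%, against 6.2%) were higher and 1 (2.7%, against 6.23%) was lower. The lower member was Hapln1, a link protein of the extracellular matrix (-1.72 ± 0.12), which passed the filter through the cortex alone. Agt, angiotensinogen, ran from 57.9 (median 63.9) to 68.3 in the cortex and from 95.9 (median 96.2) to 96.6 in the hypothalamus, a log2 difference of 3.76 ± 0.11 (adjusted p = 4.2e-08). Itih3, a hyaluronan-binding protein, was higher by 3.76 ± 0.075 (adjusted p = 6.3e-09), and Slc6a11, the glial GABA transporter GAT3, by 1.80 ± 0.073 (adjusted p = 2.1e-07). Aqp4, the water channel of astrocyte endfeet, was the other member at least 2-fold higher (1.09). Gfap was called with 0.59, and Aldh1l1 was not called (-0.02). Genes of ependymal cells and tanycytes were at least 2-fold higher in 13 of 24 (54.2%, against 6.2%) and at least 2-fold lower in 2 (8.33%, against 6.23%). The median log2 difference was 1.09, and 4 of the 13 higher members passed the filter through the hypothalamus alone. Cd24a was higher by 2.16 ± 0.16, and the cilia genes Tekt1 and Rsph1 by 1.46 ± 0.075 and 1.64 ± 0.091. The 2 lower members, Dio2, the deiodinase that activates thyroid hormone, and Crym, are also made by cortical cells. Dio2 was lower by 2.82 ± 0.083 (adjusted p = 1.1e-08), though its 3 probe sets ranged from -2.82 to -0.35.

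Microglia genes were called lower in the hypothalamus in 19 of 25 and higher in 3 (against 39.7% and 35.6% of all genes), 0 at least 2-fold, with a median log2 difference of -0.31. C1qc, of the complement system, was lower by 0.84 ± 0.075 and Tmem119 by 0.83 ± 0.062 (adjusted p = 4.1e-06 and 8.1e-07). In the deposited values without ranking both differences were above 0 (0.053 and 0.13) and below the median shift of 0.87. Of 27 endothelial and pericyte genes, 8 were called higher and 7 lower (against 35.6% and 39.7% of all genes), and 0 at least 2-fold. The sign of their median depended on the scaling (0.07, and -0.10 after centring on array medians).

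Markers of tissues next to the dissections were examined for what else the samples held. Ttr, transthyretin, the most abundant product of the choroid plexus, had percentiles of 99.99, 98.1 and 99.97 at 4 weeks and of 83.0, 90.5 and 99.2 at 8 weeks in cortex replicates 1, 2 and 3. In the hypothalamus its percentiles were 41.1 to 70.4, a log2 difference of -5.23 ± 0.57 (adjusted p = 2.8e-05). In the animals with both tissues the difference ran from -8.46 to -2.06. Of the 20 choroid plexus genes with a probe set, 12 were below the filter, among them the defining genes Kl, Folr1, Otx2 and Cldn2, with cortex means between percentiles of 9.23 and 46.5. Of the 8 tested, 4 were called lower and 4 higher (against 39.7% and 35.6% of all genes). At least 2-fold, 2 (25%, against 6.23%) were lower and 1 (12.5%, against 6.2%) was higher. Kcnj13, a potassium channel of this epithelium, was lower by 2.08 ± 0.44 with arrays that overlapped. The part of choroid plexus tissue in these values was not tested.

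Leptomeningeal genes were called lower in the hypothalamus in 6 of 30 and higher in 1 (against 39.7% and 35.6% of all genes). At least 2-fold lower were 3 (10%, against 6.23%), 1 of which passed the filter through the cortex alone. They were Ccn3, Igfbp2 and Omd, with log2 differences of -2.71 ± 0.25, -1.75 ± 0.31 and -1.63 ± 0.096. The median level of this list was 7.66 in hypothalamus 4 weeks replicate 1 and 7.94 in 8 weeks replicate 3, above every control cortex array (6.73 to 7.12), and 5.80 to 6.69 in the other 4. Without the first of these arrays 6 members were at least 2-fold lower, and without the second 7. The collagen genes Col1a2 and Col3a1 were not called. In treated animals 9 members were at least 2-fold lower. Of 8 pituitary genes tested, 1 (12.5%, against 6.2% of all genes) was at least 2-fold higher in the hypothalamus. This was Cga, the shared α subunit of pituitary hormones, which passed the filter through the hypothalamus alone. Its percentiles were 88.7, 77.4 and 25.4 at 4 weeks and 64.4, 71.6 and 79.1 at 8 weeks in hypothalamus replicates 1, 2 and 3, against 26.9 to 38.0 in the cortex (log2 difference 2.69 ± 0.55, adjusted p = 0.0026). Other pituitary hormone genes were below the filter, Prl with a mean percentile of 19.6, Tshb with 44.6, Lhb with 40.4 and Fshb with 5.13 in the hypothalamus. In 1 hypothalamus array Cga was thus as low as in the cortex.

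Thalamus and habenula genes were at least 2-fold higher in 8 of 23 (34.8%, against 6.2% of all genes) and at least 2-fold lower in 5 (21.7%, against 6.23%). The filter was passed through the hypothalamus alone by 3 of the 8 and through the cortex alone by 2 of the 5. Patj and Slitrk6 were higher by 3.60 ± 0.15 and 3.33 ± 0.094, and Tcf7l2, a WNT effector of thalamic neurons, by 1.74 ± 0.21, whereas Nrgn, also on the postsynaptic list, was lower by 3.87. Striatum genes were at least 2-fold higher in 6 of 22 (27.3%) and at least 2-fold lower in 5 (22.7%), and 2 of the 6 passed through the hypothalamus alone. Isl1, with the largest difference of the striatum genes (5.10), is also a hypothalamic factor. Hippocampal genes were at least 2-fold lower in the hypothalamus in 10 of 20 (50%), 4 of which passed through the cortex alone. They were at least 2-fold higher in 1, Prox1, which passed through the hypothalamus alone. Prox1, a homeodomain factor of dentate granule cells, was higher by 3.11 ± 0.15 (adjusted p = 5e-08). The shares of these 3 lists are thus raised by the filter. Of 24 Hox genes with a probe set, which mark the hindbrain and spinal cord, 4 passed the filter and 0 were at least 2-fold different. The 4-week and 8-week arrays were dissected in the same way, and no value here tells neighbouring tissue from genes that the hypothalamus itself expresses.

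Of 21 clock genes 13 were called lower and 3 higher (against 39.7% and 35.6% of all genes), with 3 (14.3%, against 6.23%) at least 2-fold lower. Npas2, a partner of the clock factor BMAL1, was lower by 1.76 ± 0.077, Hlf, an output factor, by 1.63 ± 0.057 and Per1 by 1.04 ± 0.10 (adjusted p = 2.3e-08, 2.3e-09 and 3.2e-06). Nr1d2, a repressor of the same loop, was higher by 0.81 ± 0.11. All animals were killed in the early light phase, so these are levels at 1 time of day. Of 15 genes for making or using microRNAs, 2 (13.3%, against 6.2% of all genes) were at least 2-fold higher, Tnrc6a (1.10 ± 0.057) and Prkra (1.03 ± 0.050). At least 2-fold lower were 0, and in treated animals 1 member was at least 2-fold higher. Of 26 nuclear-retained transcripts, 1 (3.85%, against 6.2%), Malat1, was at least 2-fold higher. Its arrays overlapped and its 7 probe sets ranged from -2.36 to 1.00, and its call was lost when any of several single arrays was left out, so no direction is given for it.

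**Figure D4:**
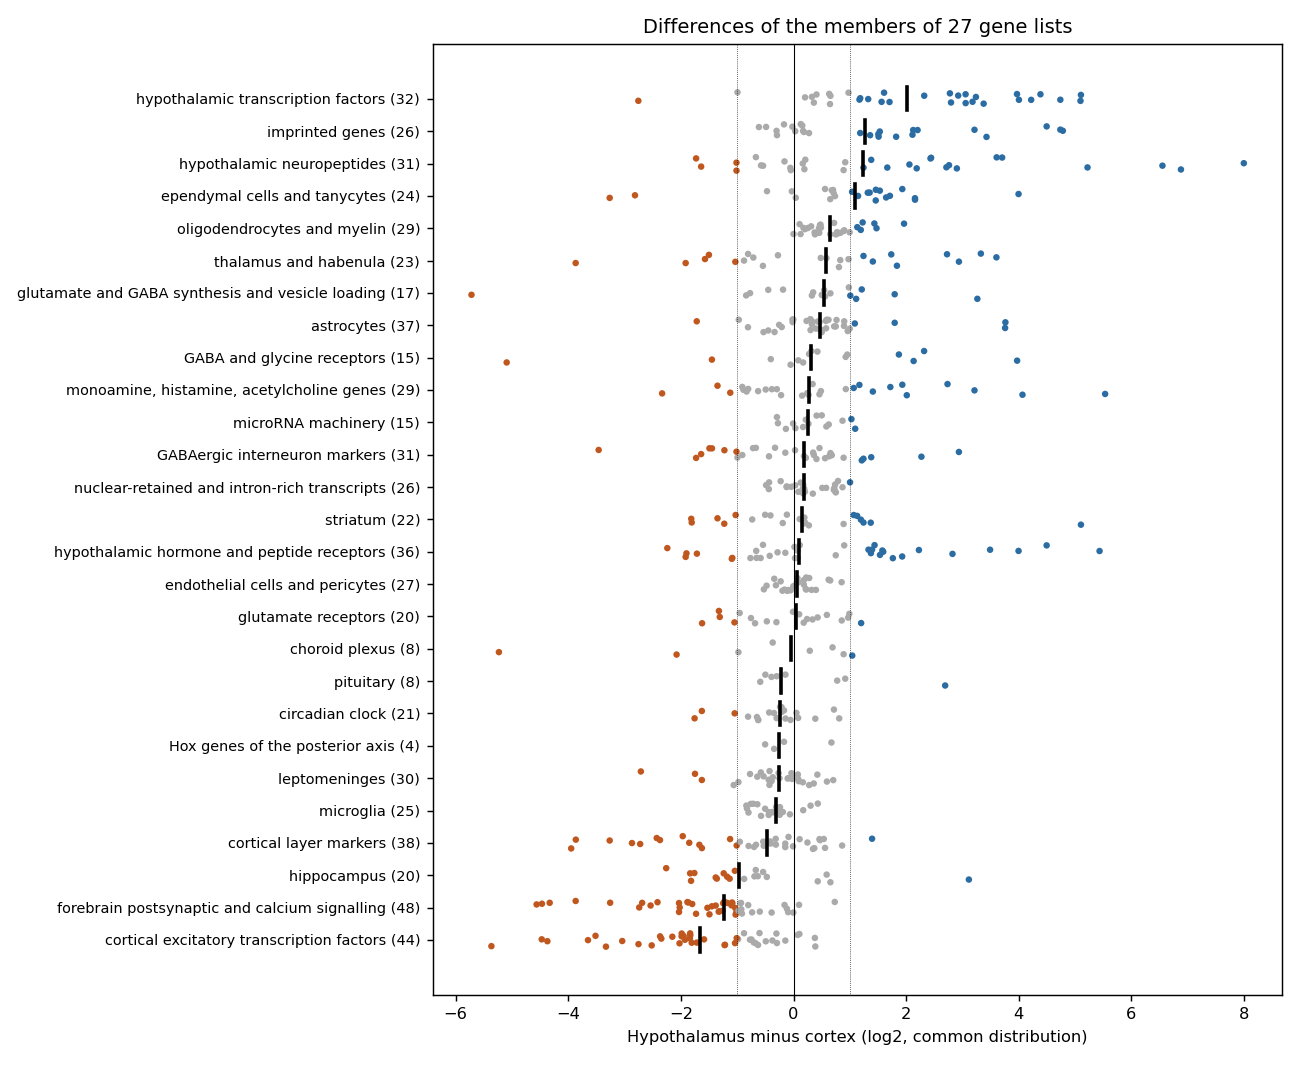
Hypothalamus minus cortex (log2, common distribution) of each tested member of 27 gene lists, 1 point per gene, with the number tested in parentheses; blue and orange points were called at least 2-fold higher and lower, black bars are list medians, and dotted lines mark -1 and 1. Medians run from -1.65 for cortical excitatory transcription factors to 2.01 for hypothalamic transcription factors.

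The tissue difference was measured at both times. At 4 weeks 3970 genes were called higher and 4234 lower (66.3% in all), and at 8 weeks 3708 higher and 4455 lower (66% in all). The difference between the times, tested as an interaction in limma, was called for 0 genes (lowest adjusted p = 0.528), with 816 genes (6.6%) at an unadjusted p under 0.05. With 3 arrays per group, a miss of the threshold does not show that the differences were equal. The lowest interaction p belonged to Armc9, with log2 differences of -0.22 at 4 weeks and 0.04 at 8 weeks, and the next to Lix1, with -0.88 and -0.01. Pmch had log2 differences of 8.11 and 7.89 at the 2 times, Avp 6.40 and 6.71, and Slc17a7 -5.68 and -5.76. Ttr had -6.71 and -3.75, with the cortex arrays spread as given above, and was not called.

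The same difference was measured in 6 tamoxifen-treated animals, each of which gave both tissues and none of which was among the controls. Of 12368 genes, 4138 were called higher and 5102 lower in their hypothalamus (74.7% in all), and at least 2-fold 870 (7.03%) and 787 (6.36%), 13.4% in all. Of the 1538 genes called at least 2-fold in the controls, 1538 had the same direction in the treated animals, 1536 were called in it, and 1386 were called at least 2-fold in it, 686 higher and 700 lower. A 2-fold call in the opposite direction was made for 0 genes. In treated animals the log2 difference of Pmch was 7.58, of Hcrt 6.38, of Avp 6.28 and of Otp 5.11, and that of Slc17a7 was -5.68, of Krt12 -5.79 and of Gabrd -4.79. The hypothalamic transcription factor list had 22 members at least 2-fold higher and 1 lower in treated animals, and the peptide list 16 and 4, the same numbers as in controls.

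Some list members had values further apart. Crh had a log2 difference of -0.67 in controls and 0.44 in treated animals, where it was not called (adjusted p = 0.14). Grik3, a kainate receptor subunit, had 0.99 and 1.98, Tbr1 -5.36 and -4.44, Meis2 -2.76 and -1.84, and Vip -1.64 and -2.48. The median of the microglia list was -0.31 in controls and -0.02 in treated animals, and C1qc, at -0.84 in controls, was at -0.15 and not called in treated animals (adjusted p = 0.24). Treated hypothalamus 8 weeks replicates 1 and 2 stood apart for this list, with median levels of 8.89 and 8.47, while the other 4 treated hypothalamus arrays lay at 7.44 to 7.53 and the control ones at 7.35 to 7.65. Whether the tissue difference itself differed between control and treated animals was not tested. Of all genes called in both sets, 12 had opposite directions. All were small differences: Ly6e, at -0.21 in controls and 0.41 in treated animals, and Usp53, at -0.11 and 0.32, turned from below to above 0, and the other 10 lay between 0.10 and 0.28 in controls and were below 0 in treated animals.

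**Figure D5:**
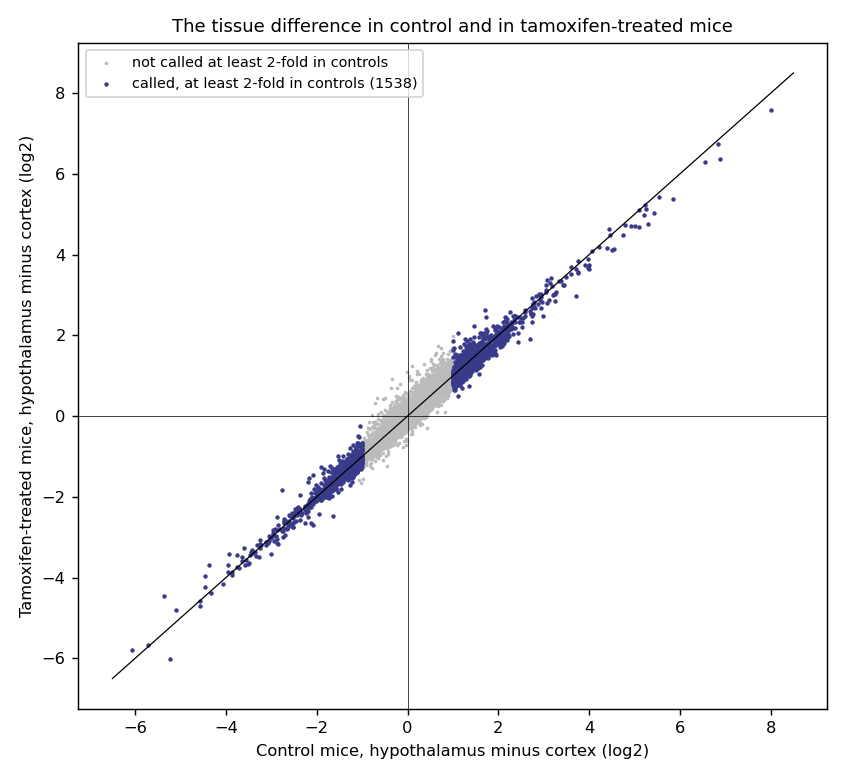
Hypothalamus minus cortex (log2, common distribution) of the 12368 tested genes in control mice (horizontal axis) and in tamoxifen-treated mice (vertical axis), with the 1538 genes called at least 2-fold in controls in dark blue; the diagonal marks equal differences. Every dark blue point lies in the lower left or upper right quadrant, near the diagonal.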

How the data were processed

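RNA of whole tissues was measured on Affymetrix mouse expression arrays, 1 array per animal and tissue. Per the labels and the study's methods, the authors summarised and normalised the arrays with RMA in Affymetrix Expression Console, separately for each tissue, and deposited log2 values per probe set. The version and the genome build were not given in the sources used here. From the 45101 deposited probe sets, 64 hybridisation controls were removed and the other 45037 were ranked within each array. Probe sets were named from the platform annotation: 34945 had 1 gene, 932 had several and 9160 had none. A probe set was kept at or above the 50th percentile on at least 3 of the 12 control arrays, and for each gene the kept probe set with the highest mean percentile was used, which left 12368 genes.

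Percentiles were fitted in limma 3.58.1 (statmod 1.5.0, R 4.3.3) with the 4 groups of tissue and time and the animal as a random block (duplicateCorrelation, 0.286 in controls and 0.0672 in treated animals), and p-values were adjusted by Benjamini-Hochberg. The labels name the animal of each array, so the pairing comes from the labels. In the 5 animals with both tissues, the deviations of the arrays from their group means correlated at 0.34, -0.00289, 0.107, 0.121 and 0.125. Sizes are log2 differences after the ranks were mapped to the mean distribution of the 12 arrays. The fit was tested on simulated data. Arrays give no counts, so their number limits the precision.

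The choice of these tissues and of the gene lists was made with earlier results of these data known. The named genes were a set of region markers, the 12 largest separated differences in each direction, up to 4 called members per list with the largest differences, the 5 lowest interaction p-values and genes with opposite calls in treated animals. Other list members named as examples were chosen after their values were seen. Promoter sequences are from RefSeq (GRCm38.p6). Alternatives covered the filter, the scale, the probe set, the block, the threshold and leaving out each array. Centring on array medians was added after seeing the data. Arrays of the hippocampus entered no test.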

Additional observations from a re-analysis of the deposited data

Results flagged for a closer look

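Of 332 sets of 6 arrays of 1 tissue examined (named genes, list medians and quality measures), 45 (13.6%) had an array whose gap to its nearest neighbour passed Dixon's 95% critical value, where chance alone gives about 1 in 20. Values below are log2 levels on the common distribution, each followed by the range of the other 5 arrays of the tissue, and no cause was tested.

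Cortex 4 weeks replicate 3 stood apart in 22 of these, with C1qc at 9.29 (8.81 to 8.93), Cga at 5.05 (4.35 to 4.56), Chga at 9.78 (9.5 to 9.56), Cldn5 at 9.88 (9.51 to 9.63) and Ddx17 at 10.3 (11.3 to 11.7). It also had Egr3 at 9.16 (10.1 to 10.5), Ermn at 7.3 (8.21 to 8.58), Gad1 at 9.96 (11 to 11.5), Glra3 at 5.64 (6.71 to 7.07) and Grm2 at 9.63 (9.16 to 9.26). Further values were Mbp at 13 (13.3 to 13.5), Neurod6 at 6.75 (8.27 to 8.83), Npy at 11.8 (11.1 to 11.2), Nr1d2 at 9.22 (10 to 10.2) and Prkra at 7.61 (7.87 to 8.01). The array gave Ralgds at 8.29 (7.74 to 7.9), Slc16a1 at 7.88 (8.43 to 8.59), Tmem119 at 8.44 (8.04 to 8.18), Tug1 at 9.23 (9.65 to 9.72) and the mean correlation with its own tissue at 0.969 (0.982 to 0.988). Last came the GABA and glycine receptors list median at 7.61 (8.7 to 8.81) and the endothelial cells and pericytes list median at 7.88 (7.61 to 7.7).

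Hypothalamus 4 weeks replicate 1 stood apart in 7 of these, with Crym at 8.19 (6.14 to 6.38), Malat1 at 12.1 (13.1 to 13.3), Npas2 at 6.04 (5.8 to 5.89), Prox1 at 5.91 (6.66 to 6.89) and Rtn4rl2 at 5 (4.28 to 4.35). It also had Tnrc6a at 11.1 (11.3 to 11.4) and the glutamate receptors list median at 8.21 (8.51 to 8.63).

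Hypothalamus 8 weeks replicate 2 stood apart in 5 of these, with Calml4 at 5.19 (6.53 to 6.98), Cd24a at 9 (9.48 to 9.75), Mef2c at 8.37 (8.06 to 8.18), the oligodendrocytes and myelin list median at 9.09 (9.32 to 9.41) and the choroid plexus list median at 6.1 (6.57 to 6.8).

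Cortex 8 weeks replicate 3 stood apart in 4 of these, with Calb2 at 10.1 (8.29 to 8.68), Patj at 5.99 (4.56 to 4.92), Slc6a11 at 9.13 (8.6 to 8.75) and Th at 8.27 (5.66 to 5.94).

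Hypothalamus 4 weeks replicate 2 stood apart in 2 of these, with Calb2 at 11.6 (11.7 to 11.7) and Nkx6-2 at 6.59 (7.13 to 7.34). Cortex 4 weeks replicate 1 stood apart in 1 of these, with Dicer1 at 8.09 (8.19 to 8.22). Cortex 8 weeks replicate 2 stood apart in 1 of these, with Slc18a2 at 3.44 (2.76 to 2.93). Hypothalamus 8 weeks replicate 1 stood apart in 1 of these, with Gpr173 at 7.19 (7.06 to 7.09). Hypothalamus 4 weeks replicate 3 stood apart in 1 of these, with Hoxb3 at 5.83 (5.39 to 5.51). Hypothalamus 8 weeks replicate 3 stood apart in 1 of these, with Ly6e at 9.09 (9.21 to 9.25).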

How the results depend on the processing

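In the deposited values as they are, with the median gene 0.87 higher in the hypothalamus, 11107 genes were called higher and 663 lower, and 4995 and 170 at least 2-fold, with 10867 and 585 at 4 weeks, 10928 and 609 at 8 weeks, and 10888 and 753, and 4445 and 185 at least 2-fold, in treated animals. There the difference turned positive for Lepr (0.776), C1qc (0.0529), Tmem119 (0.132), Siglech (0.182), Aif1 (0.256), Cdh5 (0.517), Cldn5 (0.36), Chgb (0.0682), Hoxa5 (0.561), Hoxb3 (0.717), Armc9 (0.921), Lix1 (0.573), Nme5 (0.504), Casp2 (0.651), Ly6e (0.594) and Usp53 (0.905). Centring on array medians turned Mbp (-0.394), Jazf1 (-0.00121) and Stambpl1 (-0.0213) negative. The probe set of highest variance gave 1192 genes at least 2-fold higher in controls and 1441 in treated animals, and turned Slc32a1 (-12.7 percentile points), Malat1 (-32.2), Armc9 (3.05), Cnnm2 (-8.83) and Usp53 (30.7). The cause was not tested.

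Leaving out 1 array gave 4115 to 4573 genes higher and 4596 to 4946 lower, 720 to 812 and 744 to 790 at least 2-fold, 3499 to 4135 and 3624 to 4248 at 4 weeks, 3303 to 4002 and 4098 to 4680 at 8 weeks, and in treated animals 3955 to 4125 and 4872 to 5123, or 820 to 906 and 767 to 822 at least 2-fold. The interaction with time gave 0 to 1 genes, the 1 without hypothalamus 8 weeks replicate 2. The actin difference ran from -0.004 (without cortex 4 weeks replicate 3) to 0.0764, and was -0.00167 without hypothalamus 8 weeks replicate 2. With no replicate block 4221 genes were higher and 4722 lower, 766 and 771 at least 2-fold. With a fixed replicate block over animals with both tissues these were 4304 and 4750, 730 and 761. Over the settings run on the named genes, with each control array left out in turn among them, 3097 values kept direction and side of the threshold. Of the other values, 116 lost the threshold, 12 gained it and 24 reversed.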

Other observations

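The 6 control arrays labelled hippocampus entered no test, and their values for forebrain excitatory genes are given here as a description. Their median percentile was 23.4 for Slc17a7, 1.59 for Tbr1 and 6.63 for Neurod6, all of them genes of hippocampal or cortical excitatory neurons. Prox1, a factor of dentate granule cells, had a median percentile of 31.7. The median level of the hippocampal list was 6.74 to 7.12 (log2, common distribution) on these arrays, 7.17 to 7.41 in the control hypothalamus and 7.67 to 8.24 in the control cortex. Members of this list and of the next had to pass the filter on control cortex and hypothalamus arrays. Genes low in both of those tissues were thus left out, 7 of the hippocampal list and 6 of the next. The levels therefore lean towards genes that the cortex or the hypothalamus expresses. The list of thalamus and habenula genes had a median level of 7.72 to 7.97 on the same arrays, against 7.01 to 7.63 in the hypothalamus and 6.74 to 7.22 in the cortex. Tcf7l2 had a median percentile of 95.7 there, Slc17a6 of 98.0 and Calb2 of 97.4.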
